A study of Mus musculus with 4 samples.

Results

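Transcripts of 10 genes that carry, export, take up or store lipid were measured by RNA sequencing in microglia, the resident macrophages of the brain. The genes were Apoe, Clu, Abca1, Abcg1, Abca9, Lpl, Lrp1, Cd36, Plin2 and Soat1. They were taken by gene symbol from the count tables, and all 10 were found among 56832 gene rows, of which 21681 had a read in any library. The 4 libraries form 1 group, naive microglia of female C57BL/6 mice that had no intervention, drawn from litter mates without a transplant and numbered as replicates 1 to 4. The cells were dissociated from brain and sorted as CD11b-positive with low to intermediate CD45, so they are a sorted population defined by surface markers. The sources used here give neither the animals' age nor whether each library came from its own animal, so the spread between libraries may be technical. The series sets such cells beside graft-derived brain myeloid cells, which were not analysed here, and no conditions were compared.

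Brain cells exchange cholesterol on lipoprotein particles whose main protein is apolipoprotein E, which is made by astrocytes and by microglia. A cell loads such particles through ABC transporters that pass cholesterol and phospholipid out of the membrane, and it takes them up again through endocytic receptors and scavenger receptors. Surplus cholesterol is esterified and kept in lipid droplets, while surplus sterol also activates LXR, the nuclear receptor that switches on Apoe, Abca1 and Abcg1. Apoe and Lpl are known to increase in microglia near amyloid plaques and damaged myelin, and their levels in untreated brain are the baseline for that state.

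The libraries held 20360121 to 23292655 reads assigned to genes, and levels are counts scaled to the total of these reads (CPM). All 14 microglia markers reached 1 CPM in every library, with a summed level of 59558, 31840, 33012 and 62454 CPM in replicates 1 to 4. The 10 marker lists of other cells had lower sums, which ran between 12.4 CPM for neurons in replicate 1 and 2416 CPM for neutrophils in replicate 4. The libraries did not behave alike. The 16 listed immediate early genes, a set that responds fast to stimuli such as handling, summed to 5469, 59534, 51667 and 5757 CPM in replicates 1 to 4. Genes with long transcripts were low in replicate 4: among 176 genes whose longest annotated transcript is 10 kb or more, the median log2 level minus the gene's own mean was 0.37, 0.32, 0.32 and -0.75 in replicates 1 to 4. Among 1709 genes with transcripts under 2 kb, the same median was 0.07, -0.21, -0.11 and 0.30.

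All 10 genes reached 1 CPM in every library, against a background of 38.8% of the genes with a read. Of the 10, 9 reached 10 CPM in every library (background 26.4%) and 3 reached 100 CPM, namely Apoe, Abca9 and Abcg1 (background 5.28%). Together they took 4348, 5626, 6464 and 3843 CPM in replicates 1 to 4, with exact 95% Clopper-Pearson intervals of 4320 to 4376, 5596 to 5657, 6431 to 6496 and 3817 to 3870. Apoe alone made up 70.0%, 74.6%, 80.1% and 76.4% of that sum. The intervals are narrower than the gaps between libraries, but they cover counting error only. Copies of 1 molecule made by amplification may have been counted as separate reads, since the sources used here do not give the filters.

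**Figure D1:**
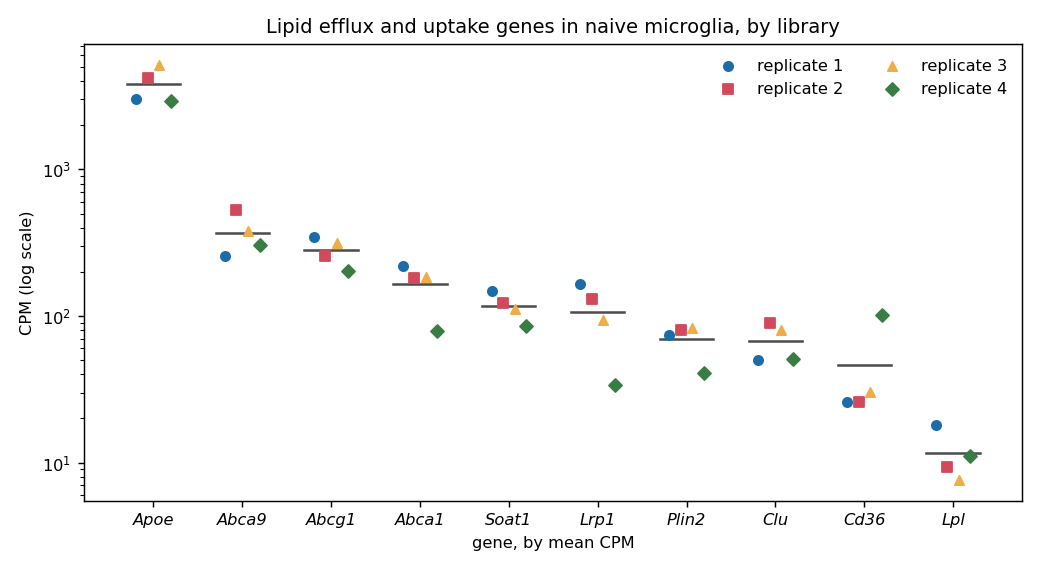
Level of each of the 10 genes in CPM (log axis) in the 4 libraries, ordered by mean CPM; each point is a library and each horizontal line the mean of 4. Apoe stands apart at the top with a mean of 3838 CPM and Lpl is the lowest at 11.5 CPM, while the point of replicate 4 is above the others for Cd36 and below them for Abca1, Lrp1 and Plin2.

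Both apolipoprotein genes among the 10 were higher in replicates 2 and 3, and Apoe was far above Clu. Apoe, the ligand by which cells recognise brain lipoproteins, gave 3044, 4197, 5175 and 2935 CPM in replicates 1 to 4, a mean of 3838 ± 1059 CPM (SD, n = 4). It was the gene with the 25th highest mean of those with a read. Replicates 2 and 3 were above replicates 1 and 4, and the highest library exceeded the lowest by 1.76-fold. In bulk samples, more cells of a type and more RNA per cell cannot be told apart. Astrocytes also make Apoe, and the 12 astrocyte markers summed to 377, 521, 591 and 297 CPM in replicates 1 to 4, and 9 of the 12 reached 1 CPM in each library. Their highest member, the glutamate transporter gene Slc1a3, gave 222, 272, 276 and 57.5 CPM, and the defining marker Aldh1l1 had 0 reads in replicates 1, 3 and 4. The astrocyte markers did not move together: Aqp4, Gja1, Gjb6 and Slc4a4 were highest in replicate 4, at 19.1, 72.5, 17.3 and 26.3 CPM. The other listed astrocyte markers were highest in replicate 2 or 3. Border-associated macrophages make Apoe too, and their 10 markers summed to 310, 809, 884 and 458 CPM, with 8 reaching 1 CPM in each library. The highest of these by mean, the mannose receptor gene Mrc1, gave 68.9, 213, 191 and 106 CPM, and Siglec1 had 0 reads in replicates 3 and 4. Cd163 and Ms4a7 were highest in replicate 4, at 32.6 and 83.5 CPM. Siglec1 was highest in replicate 1, and the other listed markers of these macrophages in replicate 2 or 3. Sums for oligodendrocytes, endothelial cells and platelets were likewise higher in replicates 2 and 3. The part of these cells' RNA in the levels of Apoe, Clu and Abca9, which were also higher there, was not tested.

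Clu encodes clusterin, an extracellular chaperone and lipoprotein component that is also made by astrocytes. It gave 49.98, 89.3, 80.5 and 50.8 CPM in replicates 1 to 4, a mean of 67.7 ± 20.3 CPM (SD, n = 4), so replicates 2 and 3 were again the higher ones. Per kb of annotated exon, which corrects for transcript length, Apoe over Clu gave a log2 ratio of 6.61, 6.24, 6.69 and 6.54. The mean ratio was 6.52 ± 0.20 (SD, n = 4), so the distance between the pair varied less than either gene's level. Of the other apolipoproteins, Apod gave 14.2, 88.9, 104 and 36.6 CPM and Apoc1, a neighbour of Apoe in the genome, had 16, 6, 40 and 33 reads. Apod is a known product of myelinating glia, and the 10 oligodendrocyte markers, of which 8 reached 1 CPM in each library, summed to 517, 1875, 1926 and 629 CPM; their part in the Apod level was not tested.

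The promoter window of Apoe is shown because it is the most abundant of the 10 genes. RefSeq windows of GRCm38.p6, from 250 bases before to 50 after a start site, were on hand for 7 of the 10 genes and are named Apoe, Abca1, Lrp1, Cd36, Plin2, Soat1 and Abca9. Capitals mark letters found by a search on both strands for the core of PU.1 sites (GAGGAA), the E-box (CACGTG) and the hexamer of LXR sites (AGGTCA), alone or as a pair on the same strand 4 bases apart. Of 32851 windows in the table, 28.3% hold GAGGAA, 7.15% hold CACGTG, 16.3% hold AGGTCA and 3.02% hold the pair with at most 2 mismatches. The Apoe window, chr7:19699139-19699438 on the minus strand, holds GAGGAA at position -250 and, on its reverse strand, at position 2, counting the start site as 1. Apoe has 3 windows in the table, and this is the most upstream. None of the 3 holds the E-box, the LXR hexamer or the pair at that limit.
Apoe: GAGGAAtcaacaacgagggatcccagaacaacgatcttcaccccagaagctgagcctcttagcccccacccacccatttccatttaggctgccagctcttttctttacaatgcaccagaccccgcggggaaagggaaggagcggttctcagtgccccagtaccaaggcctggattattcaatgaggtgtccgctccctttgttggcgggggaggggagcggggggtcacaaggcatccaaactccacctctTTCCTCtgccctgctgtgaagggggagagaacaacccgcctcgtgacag

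Among the transporters, Abca9 and Abcg1 had the highest CPM and Abca1 was lower. Abca9 belongs to the ABCA family and is described in human macrophages as sterol-responsive. It gave 257, 530.3, 381 and 303 CPM in replicates 1 to 4, a mean of 368 ± 120 CPM (SD, n = 4), and replicate 2 was the highest. Abcg1, which moves cholesterol to lipoprotein particles, gave 347, 258, 316 and 203 CPM, a mean of 281 ± 63.7 CPM. Abca1, which loads lipid onto lipid-poor apolipoproteins, gave 218, 182, 184 and 79.1 CPM, a mean of 166 ± 60.0 CPM. For Abca1 and Abcg1, replicate 4 was the lowest and replicate 1 the highest, while Abca9 was lowest in replicate 1.

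Per kb of exon, Abcg1 was above Abca1 in 4 of 4 libraries. The log2 ratio of Abca1 over Abcg1 was -1.18, -1.01, -1.29 and -1.86 in replicates 1 to 4, a mean of -1.33 ± 0.37 (SD, n = 4). Abca9 was above Abca1 in 4 of 4 libraries as well, by 1.56 ± 0.73. Their relatives were lower: Abca7, an ABCA transporter known for phospholipid transport and phagocytosis, gave 31.3, 5.14, 7.26 and 7.37 CPM, and Abca1 exceeded it per kb by 3.39 ± 1.08 on the log2 scale. Abca8a, a close relative of Abca9 in the same gene cluster, had 1, 253, 20 and 0 reads, and Abcg4, a relative of Abcg1, had 0, 30, 0 and 0 reads. Because these were at or under 3 reads in some library, no fold is given for them. Reads that fit several members of the ABCA cluster equally may have been left out of the counts.

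The Abca1 window, chr4:53159846-53160145 on the minus strand, is shown because Abca1 is a textbook LXR target. It holds the E-box letters at position -147 and no AGGTCA pair with at most 2 mismatches. With 3 mismatches allowed, a limit added after the window had been seen, its reverse strand holds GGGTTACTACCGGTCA, whose lowest position in the window is -67. At that looser limit 21.9% of all windows hold a match, so the letters are common and cannot alone show whether a site is present.
Abca1: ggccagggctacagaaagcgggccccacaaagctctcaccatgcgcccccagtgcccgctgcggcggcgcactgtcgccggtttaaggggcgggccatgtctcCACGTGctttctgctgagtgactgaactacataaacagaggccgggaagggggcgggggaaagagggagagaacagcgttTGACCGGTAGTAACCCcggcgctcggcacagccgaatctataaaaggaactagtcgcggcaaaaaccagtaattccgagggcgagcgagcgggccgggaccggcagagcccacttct

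Of the 3 uptake genes among the 10, Lrp1 was lowest in replicate 4, Cd36 was highest there, and Lpl was highest in replicate 1. Lrp1, a large endocytic receptor for Apoe-bearing particles, gave 166, 131, 94.1 and 33.5 CPM in replicates 1 to 4, a mean of 106 ± 56.7 CPM (SD, n = 4). No library's value was near another's, and replicate 1 exceeded replicate 4 by 4.96-fold. Its longest annotated transcript, at 14888 bases, is the longest of the 10 genes. Its log2 level minus its own mean was 0.86, 0.52, 0.05 and -1.43, beside the medians of 0.37, 0.32, 0.32 and -0.75 for genes of 10 kb or more. Abca1, with a transcript of 10262 bases, gave 0.49, 0.23, 0.25 and -0.97 on that scale. Genes with short transcripts were below their class in replicate 4. Apoe, Clu and Plin2, at 1408, 1810 and 1888 bases, gave -0.35, -0.36 and -0.72 there, beside a median of 0.30 for genes under 2 kb. The part of transcript length in these values was not tested.

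**Figure D2:**
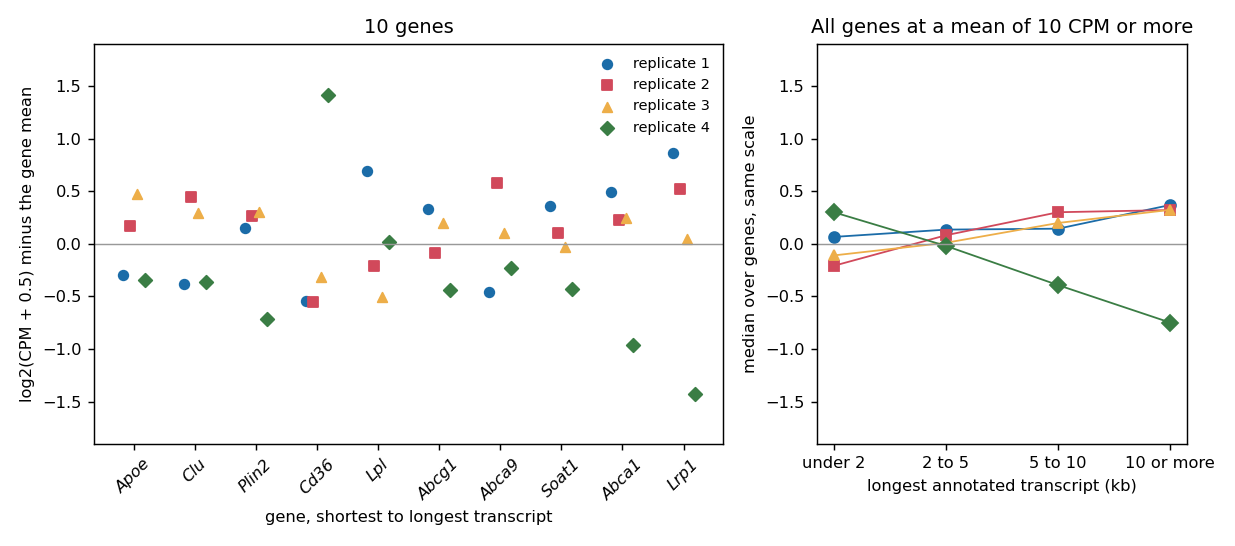
Left, log2(CPM + 0.5) of each of the 10 genes minus its mean over libraries, ordered from the shortest to the longest annotated transcript, with each point a library; right, the median of the same quantity over all genes whose mean reached 10 CPM, by length of the longest transcript. Replicate 4 is lowest for long transcripts in both, at -0.75 in the class of 10 kb or more and -1.43 for Lrp1. Among short transcripts it is also lowest for Apoe and Plin2, at -0.35 and -0.72, though the median under 2 kb is 0.30. Cd36 is at 1.42 in that library.

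Cd36, a scavenger receptor for oxidised lipoproteins and long-chain fatty acids, gave 25.8, 25.7, 30.3 and 102 CPM in replicates 1 to 4. Replicates 1 to 3 lay within 1.18-fold of each other and replicate 4 stood 3.74-fold above their mean. The mean was 46.0 ± 37.5 CPM over 4 libraries and 27.3 ± 2.63 CPM (SD, n = 3) without replicate 4. Cd36 is also made by blood monocytes, platelets and endothelial cells, so the sums of their markers are given. In replicates 1 to 4 the 8 monocyte markers summed to 189, 154, 168 and 231 CPM. Of these, 5 reached 1 CPM in each library, and they differed in replicate 4: Ly6c2, Chil3, Plac8 and Ace were highest there, at 31.2, 124, 28.8 and 24.4 CPM, whereas the defining receptor gene Ccr2 and Ms4a6c were lowest there, at 0.049 and 20.4 CPM. The 10 endothelial markers summed to 98.1, 197, 172 and 123 CPM, with 3 reaching 1 CPM in each library. They differed in replicate 4 as well: Cldn5 and Pecam1 were highest there, at 29.1 and 45.7 CPM. Flt1, Slco1a4, Kdr and Tek were lowest there, at 0.49, 0.98, 0.049 and 0 CPM. The 6 platelet markers summed to 71.0, 99.4, 92.9 and 59.0 CPM, with 2 reaching 1 CPM in each library and Gp6 at 0 reads in every library. Only the monocyte sum was highest in replicate 4 among these 3 lists. The sums for neutrophils at 2416 CPM, choroid plexus and ependymal cells at 2050 CPM, mural cells and fibroblasts at 135 CPM and microglia at 62454 CPM were also highest there. Of the choroid plexus sum in replicate 4, Ttr gave 2008 and Folr1 41.6 CPM, while Kl, Clic6 and Tmem212 gave 0.049, 0 and 0.049 CPM. Of the mural sum, Rgs5 and Vtn gave 72.3 and 61.2 CPM, and 4 of the 10 mural markers had 0 reads there. In each library 8 of 10 neutrophil, 1 of 8 choroid plexus and 1 of 10 mural markers reached 1 CPM. The part of all these cells' RNA in the Cd36 level was not tested.

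The Cd36 window, chr5:17835847-17836146 on the minus strand, is shown because Cd36 had the library farthest from the rest. It holds AGGTCA on its reverse strand at position -228.
Cd36: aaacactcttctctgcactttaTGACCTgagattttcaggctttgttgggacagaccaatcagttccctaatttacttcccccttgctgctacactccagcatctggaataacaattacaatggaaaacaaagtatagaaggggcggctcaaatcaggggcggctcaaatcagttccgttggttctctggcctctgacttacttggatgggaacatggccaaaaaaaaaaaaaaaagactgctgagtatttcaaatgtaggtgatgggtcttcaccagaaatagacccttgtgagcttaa

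Lpl, the lipase that frees fatty acids from triglyceride-rich lipoproteins, gave 18.1, 9.39, 7.60 and 11.1 CPM in replicates 1 to 4, a mean of 11.5 ± 4.57 CPM (SD, n = 4). It was the lowest of the 10 genes in each library, and it rested on 372, 212, 177 and 226 reads. The exact 95% interval of replicate 1, 16.3 to 19.98 CPM, lay above those of the other libraries, of which the highest reached 12.6 CPM in replicate 4. Lmf1, a factor that the lipase needs to fold, gave 59.1 ± 9.01 CPM (SD, n = 4), while Gpihbp1, its anchor on endothelium, had 0, 1, 0 and 0 reads and its inhibitor Angptl4 had 0, 74, 0 and 0 reads. Lpl was below Lipa, the acid lipase of lysosomes, in 4 of 4 libraries, with a log2 ratio per kb of -5.03 ± 0.19.

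Among other uptake genes, Olr1, a scavenger receptor for oxidised lipoproteins, had 0 reads in every library. Lrpap1, the chaperone that keeps Lrp1 from binding ligands early, gave 316 ± 78.9 CPM (SD, n = 4), and Lrp1 over Lrpap1 was -3.86 ± 0.95 per kb on the log2 scale. Mylip, an LXR-induced ubiquitin ligase, gave 200.2, 157, 187 and 321 CPM in replicates 1 to 4, a mean of 216 ± 71.9 CPM, and was highest in replicate 4. Scarb2, a lysosomal membrane protein of the scavenger receptor family, gave 234 ± 81.0 CPM. The order of Lrp1 and Cd36 was mixed, with log2 ratios of 0.38, 0.05, -0.67 and -3.91, a mean of -1.04 ± 1.96 that was -0.08 without replicate 4. The mean order turned to 1.27 when no length correction was made.

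Both storage genes were lowest in replicate 4, which was the lowest library for 37.7% of genes whose mean reached 10 CPM. Soat1, the enzyme that esterifies cholesterol for storage, gave 148, 123, 112 and 85.0 CPM in replicates 1 to 4, a mean of 117 ± 25.97 CPM (SD, n = 4). Its sister gene Soat2 had 0, 32, 12 and 3 reads. Nceh1, which hydrolyses cholesterol esters, gave 29.5 ± 9.07 CPM, and Soat1 exceeded it per kb by 1.12 ± 0.64 on the log2 scale in 4 of 4 libraries. Plin2, the coat protein of lipid droplets, gave 74.5, 80.4, 82.9 and 40.6 CPM, a mean of 69.6 ± 19.6 CPM (79.3 ± 4.28 over the 3 libraries other than replicate 4). Plin3, a related coat protein, was steady at 33.3 ± 2.23 CPM, and the log2 ratio of Plin2 over Plin3 per kb was 1.36, 1.34, 1.31 and 0.47, so the pair drew closer in replicate 4. Plin1 and Plin4, the coat proteins of adipocyte droplets, had 0 reads in every library.

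The Plin2 window, chr4:86670010-86670309 on the minus strand, is shown because it is the one window of the 7 that holds both the LXR hexamer, on the reverse strand at position -218, and the E-box, at position -4.
Plin2: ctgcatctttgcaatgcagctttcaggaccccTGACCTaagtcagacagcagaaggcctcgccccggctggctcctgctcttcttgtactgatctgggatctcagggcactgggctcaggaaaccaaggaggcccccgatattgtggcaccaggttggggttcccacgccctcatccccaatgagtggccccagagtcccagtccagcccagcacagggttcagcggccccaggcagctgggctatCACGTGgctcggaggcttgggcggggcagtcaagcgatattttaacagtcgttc

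The order of the 10 genes per kb of exon was led by Apoe and ended with Lpl. Means of CPM per kb were 1795 ± 495 for Apoe, 45.7 ± 14.9 for Abca9, 38.5 ± 8.72 for Abcg1, 19.8 ± 5.59 for Plin2 and 19.7 ± 5.89 for Clu (SD, n = 4 each). They were 15.98 ± 5.79 for Abca1, 12.8 ± 10.4 for Cd36, 11.96 ± 2.65 for Soat1, 6.00 ± 3.20 for Lrp1 and 1.10 ± 0.44 for Lpl. Of the 9 pairs of neighbours, 4 kept their order in 4 of 4 libraries with a mean log2 ratio above its SD: Apoe over Abca9 (5.31 ± 0.34), Abcg1 over Plin2 (0.98 ± 0.29), Soat1 over Lrp1 (1.19 ± 0.70) and Lrp1 over Lpl (2.30 ± 1.01). The other 5, from Abca9 over Abcg1 and then from Plin2 down to Soat1, did not differ beyond their spread. With the longest transcript as the length, Clu and Plin2 changed places, as did Soat1 and Cd36, and the other 6 genes kept theirs.

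**Figure D3:**
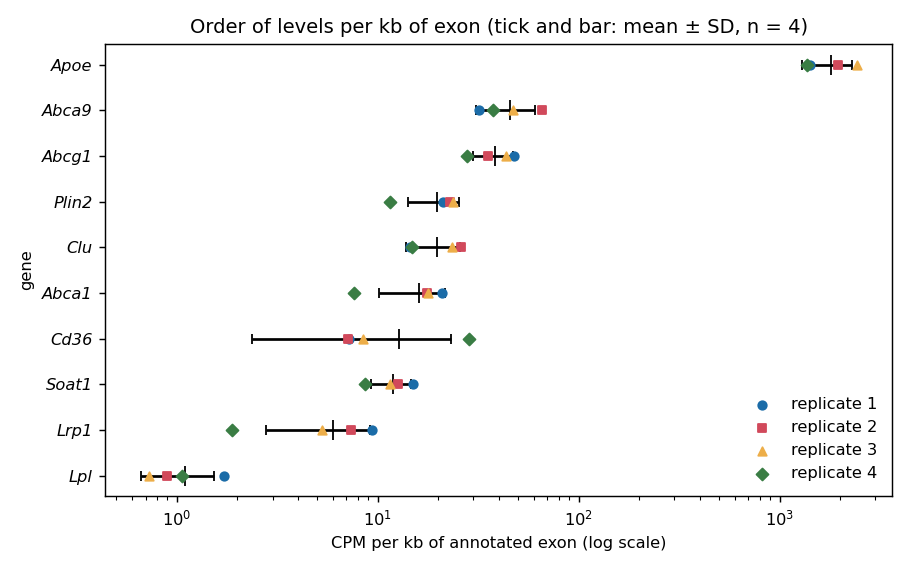
CPM per kb of annotated exon (log axis) of the 10 genes in order of their mean; points are libraries, and the tick and bar give the mean ± SD of 4 libraries. Apoe at 1795 is separated from Abca9 at 45.7, the genes from Plin2 to Soat1 overlap, and Lpl is the lowest at 1.10.

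Pairs of genes with related roles were compared within each library over 18 pairs. In 17 of them 1 gene was higher in 4 of 4 libraries, and the exception was Lrp1 over Cd36. An exact permutation test, two-sided and by sign flips over libraries, returned p = 0.125 for each of the 17, adjusted p = 0.132 over the 18 pairs, and p = 0.50 for Lrp1 over Cd36. With 4 libraries 0.125 is the smallest value that test can give, so none of the 18 orders could pass 0.05. In 13 pairs both genes had over 3 reads in every library. Leaving out 1 library changed no order, and besides Lrp1 over Cd36 it moved 1 of those 13 ratios by over 1.5-fold, Apoe over Apoc1, which was 10.49 ± 1.29 and 9.89 without replicate 2.

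**Figure D4:**
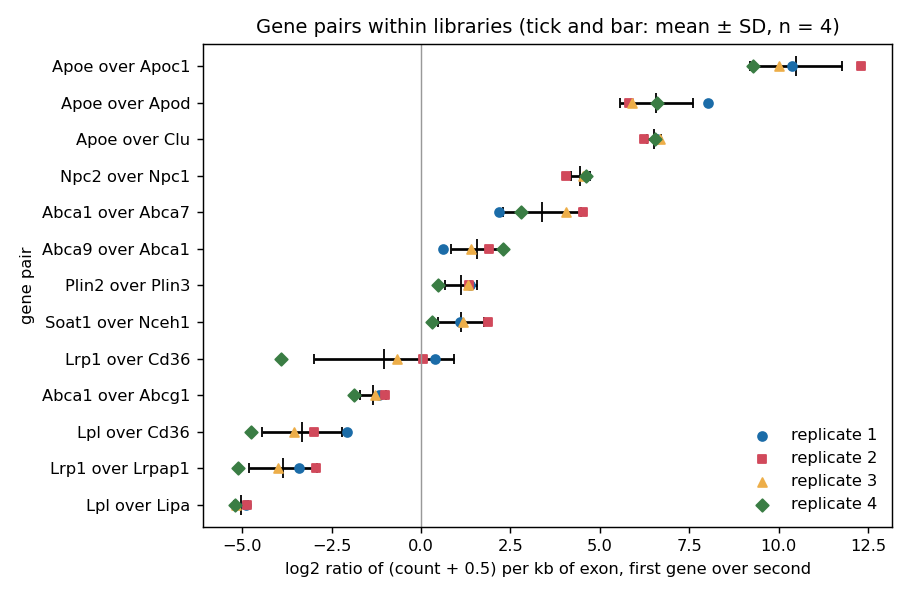
Within-library log2 ratio per kb of exon, with 0.5 added to each count, for the 13 pairs in which both genes had over 3 reads in every library; points are libraries, and the tick and bar give the mean ± SD of 4 libraries. Apoe over Clu spans 6.24 to 6.69 and Lpl over Lipa -5.20 to -4.86, while Lrp1 over Cd36 runs on both sides of 0, from -3.91 to 0.38.

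Spread between libraries was tested for every gene by setting its edgeR quasi-likelihood dispersion against the trend at its expression level. None of the 10 genes passed at an adjusted p under 0.05, and neither did any of the 9075 genes tested (background 0%). At an unadjusted p under 0.05 it was 0 of 10, against a background of 4.30%, and DESeq2 marked 0 genes as dispersion outliers. Lrp1 came nearest, with a dispersion 2.41 above the trend on the log2 scale, an edgeR p of 0.063 and an adjusted p of 0.944. With 4 libraries even that departure did not reach 0.05, so a count of 0 does not show that levels were even. Abca1 and Cd36 followed at 1.55 and 1.51, and Lpl was the steadiest for its level at -1.30. This order depended on the method and on replicate 4. By DESeq2, Cd36 was highest at 0.34, Lrp1 was at 0.06 and Abca1 at -1.07, and Soat1 was the steadiest at -3.00. Without replicate 4, Abca1 and Cd36 were at -3.16 and -3.05 in edgeR. Without replicate 2 or without replicate 3 the unadjusted edgeR p of Lrp1 was under 0.05, and its adjusted p was 0.944 and 0.955. Without replicate 1 its unadjusted edgeR p was 0.087. Without replicate 4 its dispersion fell to 0.54 above the trend, with an unadjusted edgeR p of 0.32.

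By size, 6 of the 10 genes differed by more than 2-fold between their highest and lowest library, against a background of 66.1% of 8175 genes whose mean reached 10 CPM. They were Lrp1, Cd36, Abca1, Lpl, Abca9 and Plin2, with the last pair at 2.06-fold and 2.04-fold. Without replicate 4 it was 2 of 10, Lpl and Abca9, against 35.2% of genes. Replicate 4 was the lowest library for 6 of the 10 genes, against a background of 37.7%, and these were Apoe, Abca1, Abcg1, Lrp1, Plin2 and Soat1. Replicate 1 was the highest library for 5 of the 10, against a background of 27.5%, namely Abca1, Abcg1, Lpl, Lrp1 and Soat1. For Apoe, Clu, Abca9 and Plin2, replicates 2 and 3 were the highest libraries. These are the libraries with the high immediate early gene sums, whose part in these levels was not tested.

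Genes with the most similar profile were sought among 8175 genes whose mean reached 10 CPM, by the root mean square difference of centred log2 levels over 4 libraries. For Apoe the nearest was Nop53 at 0.02, with 160, 214, 262 and 150 CPM in replicates 1 to 4. For Abcg1 it was Pld4, a lysosomal exonuclease gene, at 0.01 and with 2155, 1597, 1962 and 1285 CPM. Plin2 was nearest to Hsp90b1, a chaperone of the endoplasmic reticulum, at 0.02, and Cd36 to Sc5d, a cholesterol synthesis enzyme, at 0.04. Clu was nearest to the MHC class I gene H2-D1 at 0.03, Abca1 to Bcl7b at 0.03, Abca9 to Borcs6 at 0.04, Lpl to Chst12 at 0.04, Lrp1 to Cdadc1 at 0.04 and Soat1 to Fkbp15 at 0.03. None of the 10 was among the 3 nearest genes of another. With 4 libraries and 8175 genes, close matches are a description of these libraries and no more.

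The wider pathway was described by 6 lists of 95 genes in all, which include the 10. Lysosomal cholesterol release was the best represented. Of its 11 genes, 8 reached 1 CPM in every library (background 38.8%) and 5 reached 100 CPM (background 5.28%). The median was 116 CPM against 3.02 CPM for all genes with a read. Npc2 and Npc1, the pair that hands cholesterol out of the lysosome, gave 1158 ± 187 and 109 ± 15.4 CPM (SD, n = 4), and Npc2 exceeded Npc1 per kb by 4.46 ± 0.26 on the log2 scale. The membrane proteins Lamp1 and Lamp2 gave 1482 ± 192 and 997 ± 304 CPM, Lipa 241 ± 79.9, Stard3, a sterol transfer protein of late endosomes, 183 ± 25.8, and Gramd1a, a sterol carrier at membrane contacts, 116 ± 56.5.

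For the counts at 1 CPM in every library that follow, the background was 38.8% of genes with a read. Of the 13 efflux transporter genes, 7 reached 1 CPM in every library, and the median was 14.9 CPM. Of the 23 uptake genes 11 did, with a median of 11.5 CPM, and of the 20 droplet and esterification genes 13 did, with a median of 28.4 CPM. Of the 13 apolipoprotein and cofactor genes 4 did, with a median of 0.11 CPM, and 5 had no read in any library. Among those 5 was Apoc2, whose exons overlap a second annotated gene, so its reads may have been set aside as ambiguous. Of the 15 lipid-sensing regulators, 9 reached 1 CPM in every library. In replicates 1 to 3 alone 13 did so, but the share of all genes was not computed for that setting. Leaving out a library cannot lower such a count, and the rise was not particular to the regulators. In the same setting it was 14 in the uptake list, 8 in the efflux list and 14 in the droplet list. The lysosomal list had 9 and the apolipoprotein list stayed at 4. The LXR-beta gene Nr1h2 gave 67.6, 111, 89.4 and 15.1 CPM and the LXR-alpha gene Nr1h3 had 100, 119, 109 and 1 reads in replicates 1 to 4, so both were lowest in replicate 4. Of the LXR-induced genes named above, Apoe, Abca1 and Abcg1 were lowest in that library, as were 37.7% of genes whose mean reached 10 CPM, and Mylip was highest in it. Tfe3, a lysosomal and autophagy regulator, gave 182, 150, 99.5 and 70.7 CPM.

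No gene of the 6 lists passed the test of spread at an adjusted p under 0.05 in edgeR. At an unadjusted edgeR p under 0.05 (background 4.30%), 2 of 13 tested did so in the uptake list. Genes left out by the minimum-read filter were not tested, so their spread is not covered by these counts. Of those tested, it was 0 of 4 in the apolipoprotein list and 0 of 13 in the droplet list. It was 0 of 8 in the lysosomal list and 0 of 9 in the regulator list. The uptake genes were Msr1, a scavenger receptor, at 1.12, 14.4, 17.3 and 0.49 CPM in replicates 1 to 4, and Slc27a1, a fatty acid transporter, at 35.0, 37.3, 25.2 and 0.79 CPM. Both were lowest in replicate 4.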

How the data were processed

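Counts were deposited by the authors as raw reads per gene symbol, 1 file per library and not normalised. Per the submitters' processing notes, STAR 2.7.10a, SAMtools 1.16.1 and HTSeq 0.11.2 were used with GRCm39. The sources used here do not give the annotation, the strand setting or the filters. The 5 closing rows of each file, 19.9% to 22.7% of its reads, name no gene and were left out. A count of 0 allows up to 3 counts, or 0.129 to 0.147 CPM.

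CPM used the reads assigned to genes, and levels per kb the union of exons in GENCODE M21, built on GRCm38 and joined by symbol, which covered 89.1% of rows. Because that build is not the authors', coordinates are given for promoter windows only. Spread between libraries was fitted with edgeR 4.0.16 in R 4.3.3 over all genes kept by filterByExpr at a minimum count of 10. The fit used TMM and an intercept only, and the common biological coefficient of variation was 0.535. Adjustment was by Benjamini-Hochberg, and DESeq2 1.42.0 served as an alternative. The fit was also run on simulated data with less spread than these libraries, so that run does not show its power here. Pair ratios, with 0.5 added to each count, were tested by exact sign flips over the 16 patterns. Python 3.11.15 did the rest.

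The 10 genes and the lists were chosen with earlier results of these data known. Named genes were the 10, up to 6 genes per list at a mean of 100 CPM or more, both genes of each pair, the nearest genes and the highest markers. Other markers were named after their values were seen. Lmf1, Gpihbp1, Angptl4, Olr1, Plin1, Plin4, Apoc2, Msr1 and Slc27a1 were named after their values were seen, as were the length classes and the 2-fold rule. Some list genes are not reported here.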

Additional observations from a re-analysis of the deposited data

Results flagged for a closer look

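Cd36 was flagged because its level of 102 CPM in replicate 4 lay far from the other 3 libraries. Abca7 was flagged in the same way for its 31.3 CPM in replicate 1, as were the log2 ratio of Plin2 over Plin3, which was 0.47 in replicate 4, and that of Npc2 over Npc1, which was 4.07 in replicate 2. These were 2 of 26 genes and 2 of 13 pairs examined, and chance alone flags about 1 in 20.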

How the results depend on the processing

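No paired analysis was possible because the libraries form 1 group. The count of genes past the test of spread was 0 with DESeq2 size factors, without scaling, without a filter, by DESeq2 and without any 1 replicate. Of the 18 pair orders, 1 was reversed by an alternative: Lrp1 over Cd36 was 1.27 without length correction, and that correction moved 11 of 18 ratios by over 1.5-fold. The lists' counts of genes at 1 CPM or more stayed within 1.5-fold of the values given. The mean CPM of the 10 genes moved by less than 1 SD with other scaling, whereas the level per kb of Apoe, Abcg1, Lpl, Plin2 and Clu was higher by over 1 SD with the longest transcript as length. With TMM scaling each of the 10 genes kept 2 or 3 of its 3 nearest genes. A minimum mean of 50 CPM left 0 to 3, but it removes nearest genes below that level, so it does not test their likeness. Genes under 3 reads in a library carry no level beyond the limit a count of 0 allows.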
